A study of Mus musculus with 54 samples.

Results

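The genes of gluconeogenesis and glucose release were followed in SGLT2-positive early proximal tubules of the mouse kidney. They are the 7 genes Pcx, Pck1, Pck2, Fbp1, G6pc, Slc37a4 and G6pc3, taken by gene name from a table of 55487 genes. All 7 had a row, and all 7 passed the filter on low values, as did 12742 genes in all. None was listed at 0 in any library.

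The tubules were cut from kidney by laser capture, 70 to 80 of them per sample, and their total RNA was sequenced. All mice were male DBA mice of 14 weeks, treated for 2 weeks. The diabetic mice carried the Ins2 Akita/+ mutation of the insulin gene and the non-diabetic mice were Ins2+/+. Either background was wild type (Sglt1+/+) or knockout (Sglt1-/-) for the intestinal and late tubular glucose transporter SGLT1, encoded by Slc5a1. Dapagliflozin, an inhibitor of the glucose transporter SGLT2, was given in the diet at 10 mg/kg. Semaglutide, an agonist of the GLP-1 receptor, was injected at 3 nmol/kg of body weight per day and was given to wild-type Akita mice only. The non-diabetic groups with a column in the table were wild type with vehicle (5 samples), knockout with vehicle (5), wild type with dapagliflozin (4) and knockout with dapagliflozin (6). The Akita groups were wild type with vehicle (6), knockout with vehicle (6), wild type with dapagliflozin (5), knockout with dapagliflozin (6) and wild type with semaglutide (5). Of 54 labelled samples, 6 were not analysed here. The labels do not say whether samples came from separate animals, so the p-values rest on the spread between samples alone, and part of that spread may be technical.

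Gluconeogenesis makes glucose from lactate, glutamine, glycerol and other precursors. Besides the liver, the proximal tubule is the main site where it takes place. Pyruvate carboxylase (Pcx) makes oxaloacetate in mitochondria, and phosphoenolpyruvate carboxykinase turns it into phosphoenolpyruvate, in the cytosol (Pck1) or in mitochondria (Pck2). Fructose bisphosphatase (Fbp1) removes a phosphate further along. Glucose 6-phosphate is then carried into the endoplasmic reticulum by the transporter Slc37a4 and split there to free glucose by the catalytic subunit G6pc. G6pc3 is a widely expressed relative of G6pc. In liver and kidney, Pck1 and G6pc are known to be held down by insulin, and Pck1 in kidney is known to rise in acidosis.

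In the annotation GENCODE M21 of GRCm38, Pck1 (ENSMUSG00000027513) lies at chr2:173153048-173159273 on the plus strand. Pck2 (ENSMUSG00000040618) lies at chr14:55540266-55551242, plus strand, and overlaps the antisense gene Gm10876. G6pc (ENSMUSG00000078650) lies at chr11:101367561-101377903 and G6pc3 (ENSMUSG00000034793) at chr11:102189620-102194081, both on the plus strand. Fbp1 (ENSMUSG00000069805) lies at chr13:62864753-62888282 on the minus strand. Pcx (ENSMUSG00000024892) spans chr19:4510472-4621752 on the plus strand and holds the gene Lrfn4 on the other strand. Slc37a4 (ENSMUSG00000032114) lies at chr9:44396852-44402968, plus strand, and holds the miRNA gene Mir7085 on the same strand. The libraries were stranded, but whether the quantification used strand is not given in the sources used here. Reads of Pck2 and Gm10876, or of Pcx and Lrfn4, may therefore not have been told apart where the genes overlap.

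The bases before the start of 3 members are shown because Pck1 was the 1 member whose level passed the test in any comparison, Pck2 is its isozyme for the same reaction, and G6pc is the other member best known for control by insulin. They come from the RefSeq promoter table of GRCm38.p6, with bases left out that GENCODE places in an exon. Capitals mark the half-site of a cAMP response element (TGACG, or CGTCA on the other strand) and an HNF1 half-site (GTTAAT, or ATTAAC on the other strand). The windows are chr2:173152823-173153047 for Pck1, chr14:55540016-55540265 for Pck2 and chr11:101367466-101367560 for G6pc, all on the plus strand.
Pck1: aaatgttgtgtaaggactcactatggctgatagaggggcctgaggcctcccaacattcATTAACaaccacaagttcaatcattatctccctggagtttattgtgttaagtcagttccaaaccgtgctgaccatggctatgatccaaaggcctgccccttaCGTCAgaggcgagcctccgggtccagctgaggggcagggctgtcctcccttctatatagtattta
Pck2: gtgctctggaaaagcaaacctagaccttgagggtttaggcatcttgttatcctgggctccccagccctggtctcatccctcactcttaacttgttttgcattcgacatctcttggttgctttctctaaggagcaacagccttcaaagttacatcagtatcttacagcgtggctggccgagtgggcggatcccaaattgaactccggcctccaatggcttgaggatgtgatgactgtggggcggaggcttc
G6pc: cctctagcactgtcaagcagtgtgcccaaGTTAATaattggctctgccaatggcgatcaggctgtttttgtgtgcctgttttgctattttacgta

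All 7 members matched the promoter table, with 10 start sites. In the 250 bases before the start, Pck1 held the cAMP half-site at -90 to -86 and the HNF1 half-site at -192 to -187, counted from the RefSeq start. G6pc held an HNF1 half-site at -221 to -216 and an HNF4 half-site (AGGTCA, either strand) at -54 to -49. The first start of Slc37a4 held a cAMP half-site at -61 to -57 and an HNF4 half-site at -127 to -122. Its second start held 2 cAMP half-sites, of which the farther one is the same bases of the genome as that of the first start. These shared bases, and the HNF4 half-site of G6pc, lie where GENCODE places an exon. G6pc3 held a glucocorticoid half-site (TGTTCT, either strand) at -190 to -185. None of the 7 motifs searched was in these windows of Pck2, Fbp1 or Pcx. The motifs are short and common: over 32851 promoter windows of this length, 17.8% held the cAMP half-site, 6.43% the HNF1 half-site, 14% the HNF4 half-site and 16.1% the glucocorticoid half-site. The other 3 motifs were the full cAMP element TGACGTCA (1.55% of windows), the FOXO core TGTTTAC (3.17%) and the direct repeat of the HNF4 half-site (0.0335%), and no member held one. The full cAMP element contains the cAMP half-site, and the direct repeat contains the HNF4 half-site at either end. A match is a run of letters and does not show that a factor binds there.

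Levels are in TPM, a measure of transcript abundance per transcript length in which every library has the same sum. Sequencing depth cannot be read from TPM and is unknown here. Nuclear protein-coding genes, counted here and below without Lars2, took only 5.98% to 14.1% of that sum. The level of each of them therefore moved with this share. The single most abundant gene, which is not counted among these, took 36.8% to 64.4%. Results are therefore also given after median-of-ratios scaling, which sets the median gene equal between libraries, with factors from 0.6215 to 1.557. The labels held up against the targeted gene: Slc5a1 lay between 0.814 and 4.29 TPM in wild-type libraries and between 0 and 0.123 TPM in knockout libraries. Markers of the labelled tissue were present, beside those of other segments. Slc5a2, which encodes SGLT2, lay between 82.5 and 274.5 TPM, and the markers of early proximal tubule Slc34a1 and Lrp2 were found in every library. Atp11a, of the late proximal tubule list, had a mean of 184.5 TPM, and the distal marker Slc12a3 ran from 1.32 to 229 TPM. Liver makes the same enzymes, and 3 hepatocyte markers (Alb, Apoa1 and Serpina1a) summed to between 0.294 and 3.86 TPM, with Apoa1 at 0 in 40 of 48 libraries. These are bulk samples, in which fewer cells of a type and less RNA per cell cannot be told apart.

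Pck1 was the most abundant member. Its mean was 409 TPM ± 169 (SD over 48 libraries), which ranked 9 among 21071 nuclear protein-coding genes, and it ran from 121 to 884 TPM. Fbp1 followed with 81.8 TPM ± 21.5 and rank 100, and Pcx with 55.7 TPM ± 17 and rank 205. G6pc had 35.6 TPM ± 15.3 (rank 428) and its transporter Slc37a4 had 25.8 TPM ± 6.44 (rank 687). G6pc3 had 3.88 TPM ± 1.501 and reached 1 TPM in 47 of 48 libraries. Pck2, the mitochondrial isozyme, had 1.02 TPM ± 0.517 and reached 1 TPM in 20 libraries. Within a library, a comparison that no scaling changes, Pck1 was at a median of 416 times the level of Pck2, with a range of 102 to 1619. G6pc was at a median of 8.84 times the level of G6pc3, with a range of 4.56 to 25.4.

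**Figure D1:**
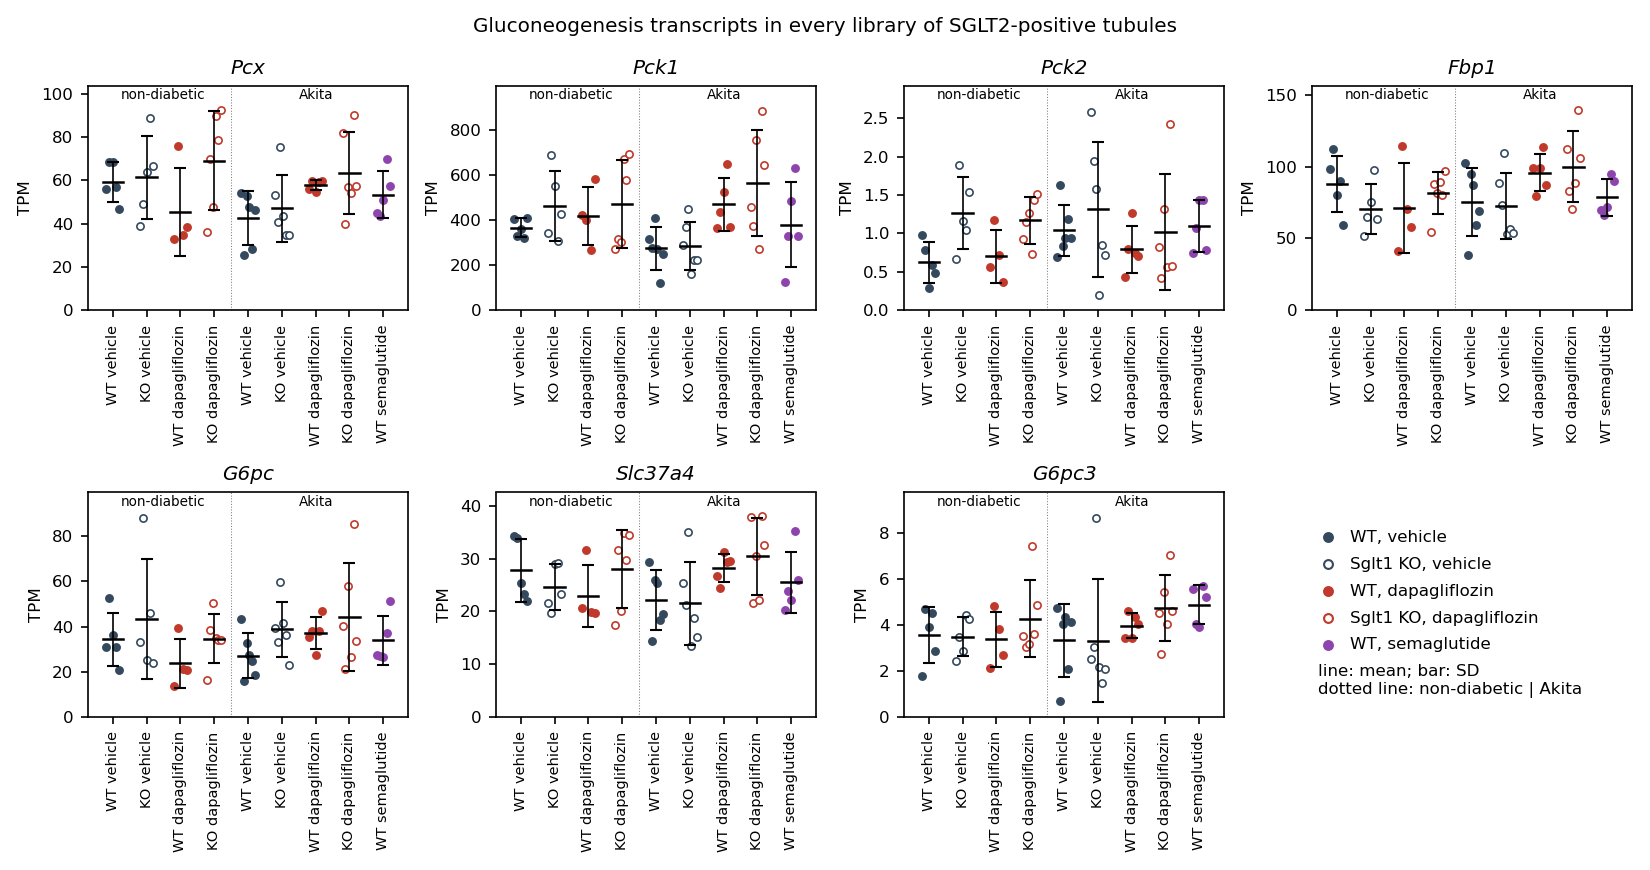
TPM of each member in every library (points), by group, with the mean (line) and SD (bar), and a dotted line between the non-diabetic and the Akita groups. Pck1 in the 11 Akita libraries with dapagliflozin lies between 274 and 884 TPM, against 121 to 448 TPM in the 12 Akita libraries with vehicle.

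For Pck1 the order of the group means ran upwards from Akita wild type with vehicle (274 ± 94.1) and Akita knockout with vehicle (285 ± 107) to non-diabetic wild type with vehicle (366 ± 41.6) and Akita wild type with semaglutide (380 ± 190). Next came non-diabetic wild type with dapagliflozin (418 ± 129), non-diabetic knockout with vehicle (463 ± 157) and Akita wild type with dapagliflozin (470 ± 119). The highest were non-diabetic knockout with dapagliflozin (472 ± 197) and Akita knockout with dapagliflozin (565 ± 236, all SD in TPM). In the order of each member, neighbouring groups lay within the larger of their 2 SDs of each other, which sorting by the mean favours and which says nothing of groups farther apart. The ratio of the highest to the lowest group mean was 2.06 for Pck1, 2.10 for Pck2 and 1.87 for G6pc. It was 1.62 for Pcx, 1.47 for G6pc3, 1.42 for Slc37a4 and 1.41 for Fbp1.

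Dapagliflozin in Akita tubules gave the only call among the members. The comparison asks whether blocking SGLT2 in diabetic mice moved the glucose-making genes of the same cells. In wild-type Akita libraries, Pck1 was at 317, 275, 410, 272, 121 and 250 TPM with vehicle and at 367, 435, 527, 648 and 371 TPM with dapagliflozin. All 5 treated libraries were above the median of the vehicle libraries, and the groups overlapped through the highest vehicle library. In knockout Akita libraries, Pck1 was at 289, 371, 448, 160, 225 and 221 TPM with vehicle and at 459, 374, 757, 274, 884 and 643 TPM with dapagliflozin. All 6 treated libraries were again above the vehicle median, and the groups overlapped.

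Averaged over the genotypes, Pck1 rose by 0.89 ± 0.22 (SE) in log2(TPM + 1), with a 95% interval of 0.44 to 1.34 and an adjusted p of 0.041 from limma. That is 1 of 7 members called, where 0.816% of all 12742 genes were called, 0.801% as higher. The median change of all genes in this comparison was 0.17. The call depended on the scaling: after median-of-ratios scaling the change was 0.63 with an adjusted p of 0.170. With the share of nuclear protein-coding genes as the base it was 0.61, also with an adjusted p of 0.170. In wild type alone the change was 0.83 ± 0.33 (adjusted p 0.383) and in knockout alone 0.95 ± 0.31 (adjusted p 0.643), and neither was called, in comparisons that called 0% of all genes.

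The call was close to the threshold. The 4 libraries of the series with the fewest detected genes were all Akita vehicle libraries, wild-type samples 2 and 5 and knockout samples 5 and 6, with 8465 to 8869 genes at 1 TPM or more. Without these 4 the change of Pck1 was 0.70 with an adjusted p of 0.692 in limma, in a fit that called 0 genes in all against 104. Leaving out 1 of the 23 libraries at a time kept the change between 0.78 and 0.98, and the call was lost in 15 of the 23 cases, spread over all 4 groups, with adjusted p between 0.0181 and 0.107. It was lost without wild-type vehicle sample 2, 4, 5 or 6 and without knockout vehicle sample 4, 5 or 6. It was also lost without wild-type dapagliflozin sample 2, 4, 5 or 6 and without knockout dapagliflozin sample 1, 3, 5 or 6.

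Of the other members, 5 were higher with dapagliflozin in Akita and 1 was lower, and none was called. Pcx changed by 0.46 ± 0.17 (adjusted p 0.152), Slc37a4 by 0.44 ± 0.15 (adjusted p 0.119) and Fbp1 by 0.44 ± 0.16 (adjusted p 0.148). G6pc3 had a change of 0.42 ± 0.19 (adjusted p 0.241) and G6pc of 0.29 ± 0.22 (adjusted p 0.492). Pck2 was at -0.18 ± 0.15 (adjusted p 0.538). The median over the 7 members was 0.44 against 0.17 over all genes, and 0.19 against -0.01 after median-of-ratios scaling. The direction of each of the 7 was the same with either scaling, though G6pc was then at 0.03. In wild type, Pcx was at 54.1, 25.7, 53.0, 47.6, 28.1 and 46.4 TPM with vehicle and at 55.9, 59.5, 54.4, 59.3 and 59.5 TPM with dapagliflozin. Here the groups did not overlap, although the gap between them was small, and the change of 0.49 ± 0.24 was not called (adjusted p 0.494, with 0% of all genes called). After median-of-ratios scaling these groups did overlap, at 36.6 to 54.4 with vehicle and 43.4 to 66.4 with dapagliflozin. The scaled change was 0.21 (adjusted p 0.804). How many of all genes had no overlap was not counted. In knockout, Pcx ran from 34.6 to 75.4 TPM with vehicle and from 39.6 to 90.4 TPM with dapagliflozin, and the groups overlapped.

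The ratio of the cytosolic to the mitochondrial carboxykinase within each library, which no scaling changes, lay lower with vehicle. The ratios given here share their Pck1 values with the call above, so they are no separate evidence, and they were not tested. Pck2, in the first of them, had a mean of only 1.02 TPM. The median of Pck1 over Pck2 was 276 (range 102 to 492) in Akita wild type with vehicle and 545 (414 to 865) with dapagliflozin. In Akita knockout it was 273 (112 to 814) with vehicle and 566 (365 to 1120) with dapagliflozin. The ranges overlapped in both genotypes. Pck1 over Slc37a4, for members that were both higher, had medians of 11.8 and 12.4 with vehicle and 16.8 and 18.5 with dapagliflozin, in wild type and knockout. Pck1 over G6pc hardly differed in wild type, with medians of 11.3 with vehicle and 11.5 with dapagliflozin. In knockout its medians were 7.40 and 12.2. Pck1 over Fbp1 had medians of 3.37 and 5.33 in wild type, and 4.02 and 5.29 in knockout. For Pck1 over Pcx they were 5.78 and 7.32 in wild type, and 6.16 and 9.61 in knockout.

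**Figure D2:**
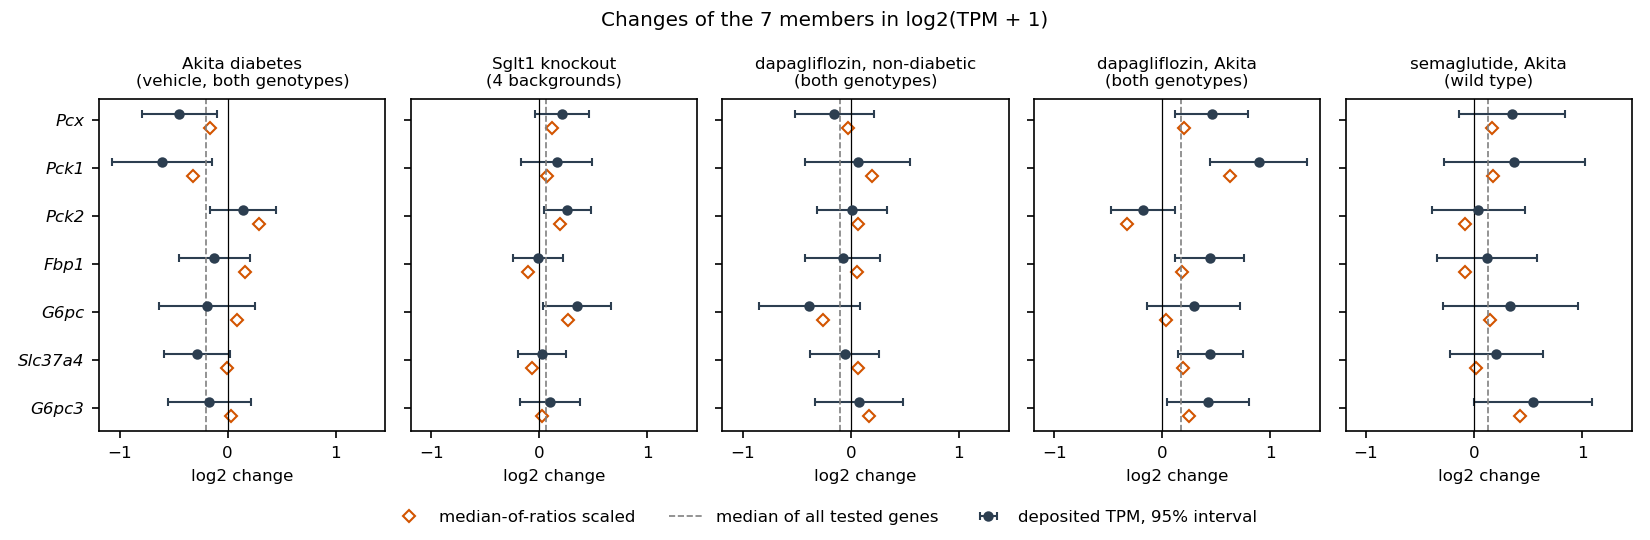
Changes of the 7 members in log2(TPM + 1) for 5 comparisons, as deposited (filled points with 95% intervals of the limma model) and after median-of-ratios scaling (diamonds). The dashed line is the median of all tested genes as deposited, and among the filled points Pck1 with dapagliflozin in Akita, at 0.89, lies farthest from it. The line does not apply to the diamonds: scaled, Pck1 is at 0.63 there and the median of all genes at -0.01.

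Markers of a later segment were higher in the same comparison. The 6 markers of late proximal tubule (Slc7a13, Cyp7b1, Slc22a7, Slc5a8, Atp11a and Slco1a1) were all higher in mean with dapagliflozin in Akita, with a median log2 difference of 0.71. Their summed level ran from 83.6 to 327 TPM in wild type with vehicle and from 164 to 443 TPM with dapagliflozin. In knockout it ran from 75.96 to 359 TPM with vehicle and from 152 to 327 TPM with dapagliflozin. None of the 6 was at 0 throughout, Cyp7b1 being at 0 in 2 libraries and Slc22a7 in 1. The 7 markers of early proximal tubule had a median log2 difference of 0.27, with 6 of 7 higher. The 5 markers of distal tubule and collecting duct were all higher, with a median of 0.22 against 0.17 over all genes, on the deposited TPM. Their summed level ran from 13.5 to 129 TPM with vehicle and from 20.5 to 229 TPM with dapagliflozin in wild type, and from 6.46 to 87.8 TPM and from 14.1 to 83.2 TPM in knockout. Of other lists, thick ascending limb had 2 of 4 markers higher (median 0.11) and endothelium 3 of 4 (median 0.10), on the deposited TPM. Fibroblast had 0 of 3 markers higher (median -0.17). The part of these markers in the change of Pck1 was not tested.

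Akita diabetes itself was not followed by a called change in any member. The comparison sets Akita against non-diabetic tubules, both with vehicle, and asks whether these genes differed in the diabetic state as a whole. In wild type, Pck1 was at 406, 329, 362, 322 and 411 TPM in non-diabetic libraries, against the Akita vehicle values given above. Of the 6 Akita libraries, 5 lay below all 5 non-diabetic ones, and 1 lay among the highest of them. Averaged over the genotypes, Pck1 changed by -0.61 ± 0.23 (95% interval -1.07 to -0.14, adjusted p 0.164), and after median-of-ratios scaling by -0.32. Pcx changed by -0.45 ± 0.17 (adjusted p 0.172) and by -0.16 after scaling. Slc37a4 was at -0.28 ± 0.15 (adjusted p 0.298) and at -0.01 after scaling. G6pc was at -0.19 ± 0.22, Fbp1 at -0.12 ± 0.16 and G6pc3 at -0.17 ± 0.19, and these 3 values were 0.09, 0.16 and 0.03 after scaling. Pck2 was at 0.15 ± 0.15, and at 0.29 after scaling. So 6 of 7 members were lower as deposited but 3 of 7 after scaling, and 0 of 7 were called, where 0.557% of all genes were called, 0.534% as lower. The median was -0.19 over the members and -0.20 over all genes. At an unadjusted p under 0.05 there were 2 members as deposited, Pck1 and Pcx, both lower, and 2360 genes in all. After scaling neither passed (p 0.129 and 0.162 in limma), and the 1 member that did was Pck2, which was higher (p 0.0357). The interaction of diabetes with genotype called 0% of all genes, and each of the 7 members had an adjusted p of 0.9999 in limma.

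The diabetes and dapagliflozin comparisons share the Akita vehicle libraries, so that a low level in these lowers the one and raises the other. Pck1 was at -0.50 ± 0.33 for diabetes and 0.83 ± 0.33 for dapagliflozin in wild type, and at -0.72 ± 0.33 and 0.95 ± 0.31 in knockout. The late proximal tubule markers, for which the same holds, were lower with diabetes in 6 of 6, with a median log2 difference of -0.81. The 5 distal markers were also all lower, but with a median of -0.11 against -0.20 over all genes. The 4 markers of thick ascending limb were all lower too (median -0.59), as were the 4 of endothelium (median -0.41). These marker differences are on the deposited TPM. The part of these markers in the change of Pck1 was not tested here either.

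In non-diabetic tubules dapagliflozin gave no call. In wild type, Pck1 was at 421, 400, 269 and 584 TPM with dapagliflozin, which overlapped the vehicle libraries on both sides. In knockout it was at 341, 689, 550, 308 and 428 TPM with vehicle and ran from 272 to 693 TPM with dapagliflozin. Averaged over the genotypes, Pck1 changed by 0.06 ± 0.24 (95% interval -0.42 to 0.55, adjusted p 0.988), and by 0.19 after median-of-ratios scaling, with 0% of all genes called. The largest value among the members was that of G6pc, at -0.38 ± 0.23 (95% interval -0.85 to 0.08, adjusted p 0.979), or -0.26 after scaling. G6pc was at 31.1, 52.8, 36.1, 30.9 and 20.9 TPM with vehicle and at 13.7, 39.3, 21.2 and 20.5 TPM with dapagliflozin in wild type, and the groups overlapped. In the knockout alone 0.00785% of all genes and none of the 7 members were called. At an unadjusted p under 0.05 there were 470 genes and none of the members in the average.

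Whether dapagliflozin acted differently in Akita and in non-diabetic tubules was tested as an interaction. In wild type the difference of the 2 changes was 1.05 ± 0.46 for G6pc (adjusted p 0.414), 0.94 ± 0.36 for Pcx (adjusted p 0.346) and 0.77 ± 0.34 for Fbp1 (adjusted p 0.415). For Pck1 it was 0.68 ± 0.49 (adjusted p 0.572). The median over all genes was 0.32, and after median-of-ratios scaling G6pc was at 0.60, Pcx at 0.48, Fbp1 at 0.31 and Pck1 at 0.21. In knockout, Pck1 was at 0.97 ± 0.45 (adjusted p 0.876), where the median over all genes was 0.22. Neither interaction called any gene (0%), so the change of Pck1 in Akita was not shown to differ from that in non-diabetic tubules.

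Loss of SGLT1 was not followed by a called change in any member. Averaged over the 4 matched pairs of groups, G6pc changed by 0.35 ± 0.16 (95% interval 0.03 to 0.67, unadjusted p 0.0314, adjusted p 0.921 in limma). Pck2 changed by 0.26 ± 0.11 (unadjusted p 0.0205, adjusted p 0.921). Pcx was at 0.21 ± 0.12, Pck1 at 0.16 ± 0.17 (95% interval -0.17 to 0.49) and G6pc3 at 0.10 ± 0.14. Slc37a4 was at 0.02 ± 0.11 and Fbp1 at -0.01 ± 0.12. Over all genes 0.0235% were called in that average. After median-of-ratios scaling G6pc was at 0.26, Pck2 at 0.20, Pcx at 0.12, Pck1 at 0.07 and G6pc3 at 0.03. Slc37a4 was then at -0.06 and Fbp1 at -0.10. In non-diabetic mice with vehicle, scaled Fbp1 was at -0.45 (unadjusted p 0.0105, adjusted p 0.674 in limma), and in Akita with vehicle at -0.05. In Akita with vehicle, G6pc was at 43.4, 15.8, 32.5, 27.3, 24.9 and 18.7 TPM in wild type and at 39.5, 32.98, 59.8, 41.8, 36.2 and 22.7 TPM in knockout. Of the 6 knockout libraries 5 were above the median of the wild-type ones, with overlap, and the change was 0.52 ± 0.30 (adjusted p 1, with 0.0157% of all genes called). In non-diabetic mice with vehicle, Pck2 was at 0.99, 0.78, 0.28, 0.59 and 0.48 TPM in wild type and at 0.67, 1.89, 1.17, 1.04 and 1.54 TPM in knockout. All but 1 of the knockout libraries were above every wild-type library, at levels near 1 TPM, and the change of 0.47 ± 0.22 was not called (adjusted p 0.981, with 0.0235% of all genes called). Scaled by median of ratios, Pck2 ran from 0.28 to 0.96 in wild type and from 0.67 to 1.51 in knockout. The scaled change was 0.39.

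Semaglutide in wild-type Akita mice also gave no call, among the members or among all genes (0%), with 742 genes at an unadjusted p under 0.05. All 7 members were higher than with vehicle as deposited, and 5 of 7 after median-of-ratios scaling, where Pck2 and Fbp1 were lower. Pck1 was at 124, 331, 487, 630 and 328 TPM with semaglutide, which reached from the bottom of the vehicle range to above its top. Its change was 0.37 ± 0.33 (95% interval -0.28 to 1.02, adjusted p 0.894), and 0.17 after scaling. With 1 library left out, this change ran from 0.14 (semaglutide sample 5) to 0.73 (semaglutide sample 2). It was 0.15 without vehicle sample 5 and 0.23 without semaglutide sample 4. Without the 4 libraries with the fewest genes it was 0.12. G6pc3 had the largest change, 0.55 ± 0.27 (adjusted p 0.845), and 0.42 after scaling. Without vehicle sample 2, its lowest library, the change of G6pc3 was 0.30, and without the 4 libraries with the fewest genes it was 0.14. It was at 5.55, 4.01, 3.92, 5.69 and 5.20 TPM with semaglutide and at 4.73, 0.67, 4.03, 4.35, 2.06 and 4.10 TPM with vehicle, and the ranges overlapped. Set directly against dapagliflozin in wild-type Akita mice, semaglutide gave Pck1 a difference of -0.46 ± 0.34 (95% interval -1.14 to 0.23, adjusted p 1, with 0% of all genes called). That interval holds both 0 and a difference as large as the change with dapagliflozin. The capture numbers in the sample titles were 88 to 99 for semaglutide and 1 to 82 for the vehicle group, and did not overlap. With capture number as a covariate in the fit of all groups, the change with semaglutide was 0.11 for Pck1 and 0.29 for G6pc3.

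The genes around the members were read from lists of the pathway, with dapagliflozin in Akita averaged over the genotypes. Of 23 tested genes that supply precursors, all 23 were higher as deposited and 20 after median-of-ratios scaling. Of these, 2 passed the test, and the median was 0.40 (scaled 0.18). Ldhd, a mitochondrial dehydrogenase of D-lactate, rose by 0.79 ± 0.18 (adjusted p 0.0262, scaled 0.54 with adjusted p 0.0523). In wild-type Akita tubules it had a median of 54.4 TPM (range 31.8 to 81.2) with vehicle and 111 TPM (62.6 to 123) with dapagliflozin, and in knockout 54.2 TPM (36.4 to 96.9) and 103 TPM (62.8 to 111). Slc38a3, which carries glutamine into the cell, rose by 0.99 ± 0.24 (adjusted p 0.0309, scaled 0.81 with adjusted p 0.0818). It had a median of 2.25 TPM (range 0.781 to 8.19) with vehicle and 5.02 TPM (1.76 to 8.02) with dapagliflozin in wild type, and the ranges overlapped. In knockout the medians were 1.88 TPM (0.701 to 2.68) and 4.66 TPM (1.95 to 11.7). Slc5a8, a monocarboxylate carrier, stands in this list and among the late proximal tubule markers.

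The list of one-way glycolytic steps and their regulators, not all of which oppose a member, gave 1 call of 12 tested genes. It was Khk, which rose by 0.52 ± 0.13 (adjusted p 0.0393, scaled 0.27 with adjusted p 0.261). Khk phosphorylates fructose and so feeds carbon in below phosphofructokinase rather than opposing a member. In wild type its median was 63.1 TPM with vehicle and 87.3 TPM with dapagliflozin. The list had 10 of 12 genes higher and a median of 0.22 (scaled 8 of 12, median 0.04). Of 8 reversible steps shared with glycolysis, all 8 were higher as deposited and 4 after scaling, with none called and medians of 0.27 and 0.02. Of 9 genes for mitochondrial export and the malate shuttle, 7 were higher (6 scaled), with none called and a median of 0.34 (scaled 0.08).

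Of 23 genes for hormonal and transcriptional control, 22 were higher (16 scaled), none was called, and the median was 0.23 (scaled 0.02). Of 6 genes for glucose entry and exit, 5 were higher (3 scaled), and none was called as deposited. The exception in direction was Slc5a2, the target of dapagliflozin, at -0.30 ± 0.18 (adjusted p 0.390), which after median-of-ratios scaling was lower by -0.56 with an adjusted p of 0.0141. Slc2a2, through which glucose leaves the cell, was at 0.22 ± 0.17 (adjusted p 0.505). The 1 other tested isozyme of a member step was Fbp2, a muscle form of fructose bisphosphatase, with a mean of 1.275 TPM. It was at -0.42 ± 0.18 (adjusted p 0.221), and is named because it was alone in its list.

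**Figure D3:**
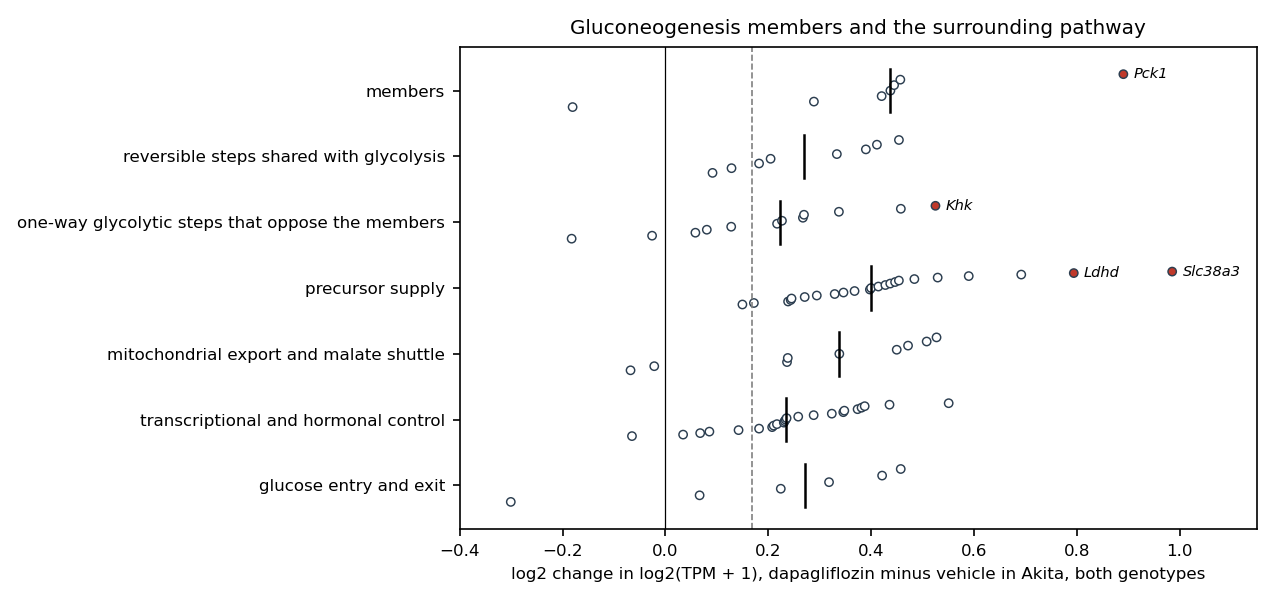
Change in log2(TPM + 1) with dapagliflozin in Akita, averaged over the genotypes, for the 7 members and the genes of 6 pathway lists (1 point per gene, filled where called, short line for the list median, dashed line for the median of all genes at 0.17). The 4 called genes, Pck1, Khk, Ldhd and Slc38a3, lie at 0.52 to 0.99 as deposited, and none of the 4 is called after median-of-ratios scaling.

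With Akita diabetes, the same lists had Ldhd as their only called gene, at -0.95 ± 0.18 (adjusted p 0.007, and -0.67 with adjusted p 0.0266 after median-of-ratios scaling). Its level was 107.7 TPM in median (87.1 to 160) in non-diabetic wild type with vehicle. That lay above the 31.8 to 81.2 TPM of wild-type Akita libraries with vehicle, so these groups did not overlap. In knockout with vehicle the groups overlapped, at 78.5 to 122 TPM in non-diabetic and 36.4 to 96.9 TPM in Akita libraries. How many of all genes had no overlap was not counted. All 23 precursor genes were lower as deposited (median -0.23, against -0.20 over all genes), but 9 of 23 after scaling (median 0.01). With loss of SGLT1, Slc5a1 itself was the only called gene of the lists, at -1.51 ± 0.11 (adjusted p 4.18e-15). With dapagliflozin in non-diabetic tubules none was called. The smallest unadjusted p values there were those of Slc38a3, at 0.57 ± 0.25 (p 0.0299, adjusted p 0.979), and of Pfkfb3, which makes the activator of phosphofructokinase, at -0.52 ± 0.24 (p 0.0386, adjusted p 0.979).

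Across the 48 libraries, 6 of the 21 pairs of members were correlated, and Fbp1, Pcx and Slc37a4 made up the 3 highest. Levels were scaled by median of ratios and put on the log2(TPM + 1) scale, and Pearson's r was computed for each pair, with permutation p-values of 100000 resamples, 2-sided and adjusted over the 21. Fbp1 and Slc37a4 had a Pearson r of 0.68 and a Spearman rho of 0.69 (p 1e-05 for both, the smallest that the resamples can give, and adjusted p 0.0001 and 0.00021). Pcx and Slc37a4 had an r of 0.59 (p 1e-05, adjusted p 0.0001) and a rho of 0.59 (p 4e-05, adjusted p 0.00042). Fbp1 and Pcx had an r of 0.52 (p 0.00022, adjusted p 0.0015) and a rho of 0.48 (p 0.00082, adjusted p 0.0057). Without the 2 libraries farthest from the median of the first gene, r was 0.69, 0.56 and 0.45. On deviations from the group means, r was 0.63, 0.62 and 0.62, so that the relation held among libraries of the same group. Pcx and G6pc3 had an r of 0.42 (adjusted p 0.015), Pck1 and Slc37a4 of 0.39 (adjusted p 0.024) and Fbp1 and G6pc3 of 0.37 (adjusted p 0.034). The last 2 pairs missed the threshold on deviations from the group means, with an adjusted p of 0.089 each by permutation.

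Pck1 and G6pc, often named together as insulin targets, had an r of -0.03 (permutation p 0.86) and a rho of -0.06 (permutation p 0.69). Pck1 and Pck2 had an r of 0.08 (permutation p 0.60), and G6pc and its transporter Slc37a4 had an r of 0.03 (permutation p 0.85). On the deposited TPM, where levels move with the share of nuclear protein-coding genes, 16 of the 21 pairs passed in place of 6, among them Pck1 and G6pc with an r of 0.33.

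**Figure D4:**
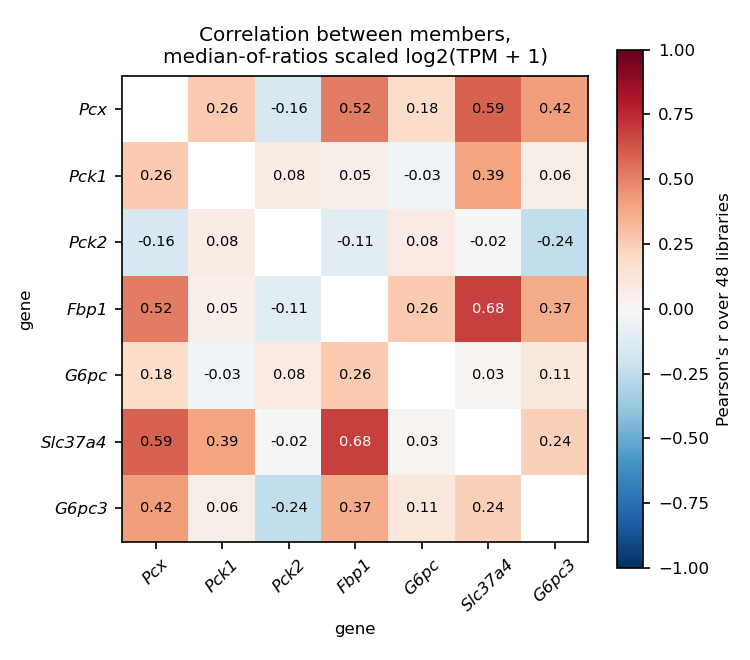
Pearson's r between members over 48 libraries, on median-of-ratios scaled log2(TPM + 1). The highest values join Fbp1, Pcx and Slc37a4 (0.52 to 0.68), while Pck1 with G6pc is at -0.03.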

How the data were processed

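RNA from SGLT2-positive tubules was sequenced by the submitters from stranded libraries of 0.5 ng of RNA, per the labels' protocols. The deposited table gives TPM per gene for 48 samples, for which Salmon (version not given in the sources used here), MultiQC 1.8 and the build GRCm38 are listed, per the submitters' processing notes. The table's name says that the authors removed outliers. How is not given here, and removal can narrow the spread and make p-values smaller. Groups came from the labels, and replicate numbers only name samples.

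Genes that reached a TPM of 1 in 5 or more samples were fitted as log2(TPM + 1) with limma 3.58.1 (R 4.3.3, trended and robust, 9 groups, 39 residual degrees of freedom). Fold changes of low genes are understated on this scale. Two-sided p-values were adjusted by Benjamini-Hochberg over the 12742 genes of each of 17 comparisons, with calls at adjusted p under 0.05. All adjusted p-values of genes are from limma. The script was tested on simulated data. Other scalings, filters and sets of samples were tried. The members, lists, motifs and naming rule (all members, every called gene of a list, otherwise the 2 smallest p, and the 3 genes most like a member) were chosen with earlier results of these data known.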

Additional observations from a re-analysis of the deposited data

Results flagged for a closer look

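In 63 sets of 1 member in 1 group, 3 had a highest sample that stood far from the rest of its group by Dixon's test at the 95% level. Chance flags about 1 such set in 20. Pcx had 75.656 TPM in 1 library of non-diabetic wild type with dapagliflozin (4 samples), against 38.399 TPM in the next. Slc37a4 had 31.685 TPM in the same library, sample 3, against 20.561 TPM in the next. After median-of-ratios scaling Slc37a4 was at 25.1 in that library, which was no longer the highest, with 25.6, 26.6 and 21.5 in the others. Scaled Pcx was at 59.9 there, against 46.4 in the next. G6pc3 had 8.6327 TPM in sample 3 of Akita knockout with vehicle (6 samples), against 3.0215 TPM in the next.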

How the results depend on the processing

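The count of members called with dapagliflozin in Akita, averaged over the genotypes, was 1. It was 0 with no filter on low values, with median-of-ratios scaling, with the sum of nuclear protein-coding genes as the base, with quantile normalization, with capture number as a covariate, without the 4 libraries with the fewest genes and with only the groups compared in the fit. It stayed at 1 with a pseudocount of 0.1 and with a stricter filter. With each library left out in turn, 0 to 2 members were called, the second being Slc37a4 without knockout vehicle sample 3. The calls among all genes moved as well, from 104 to between 9 and 378 with 1 library left out and to between 0 and 150 under the other alternatives. Pck1 had an adjusted p in limma of 0.102 with no filter, which tests 29271 genes, of 0.239 with quantile normalization, of 0.0506 with capture number and of 0.0667 with only the groups compared. No called change reversed. Of the 119 member changes, 44 that were not called changed sign under some alternative. Correlated pairs numbered 6, against 16 on deposited TPM, 4 with the nuclear protein-coding base and 4 on deviations from group means. No paired analysis was possible because the replicate numbers follow the order of records and pair no samples. Depth is unknown, so the counting error of Pck2, near 1 TPM, could not be estimated.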

Other observations

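Each member with a mean of at least 5 TPM was set against 4171 protein-coding genes of that level over the 48 libraries, on median-of-ratios scaled log2(TPM + 1). The libraries share their groups, so these correlations are a description. The 3 genes most like Pck1 were Slc25a25, a mitochondrial carrier of ATP and phosphate (r 0.88), the adrenergic receptor gene Adra2b (r 0.79) and Herpud1, a gene of the endoplasmic reticulum (r 0.74). Those most like Fbp1 were Mdh1, the cytosolic malate dehydrogenase (r 0.87), Aldh9a1 (r 0.83) and Uqcrc1, a subunit of respiratory complex III (r 0.83). Mdh1 was also the most like Slc37a4 (r 0.76), followed by Selenbp1 (r 0.73) and Tmem59 (r 0.70). Cyp4b1 (r 0.75), Selenbp1 (r 0.74) and Arsb (r 0.73) were the most like Pcx. For G6pc the highest were lower, with Slc16a12 at 0.59, Galnt11 at 0.54 and Sord, a sorbitol dehydrogenase, at 0.52.

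Slc25a25 varied more between libraries than Pck1 did. It had 23.5 TPM ± 9.94 (SD, n = 6) in Akita wild type with vehicle and 38.4 TPM ± 29.3 (SD, n = 5) with dapagliflozin. In Akita knockout it had 16.7 TPM ± 8.69 (SD, n = 6) and 39.0 TPM ± 17.6 (SD, n = 6). Its change with dapagliflozin in Akita, averaged over the genotypes, was 0.87 ± 0.46 in log2(TPM + 1), close in size to that of Pck1 and not called (adjusted p 0.320 in limma).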
